A study of Mus musculus with 6 samples.

Results

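This report describes 262 liver noncoding RNAs that an expression array read clearly in every RNA pool of a feeding study, among 21074 features tested in all. A feature is 1 probe for each transcript accession. The members were the probes of RefSeq noncoding accessions (NR_) that stood well above background in both colours on all 6 arrays, without accessions whose symbol is that of a protein-coding gene, and with the brightest probe kept for each accession. The array carried 886 probes of 757 NR_ accessions, of which 318 probes were well above background throughout and 310 of those were noncoding. No member came from 495 of the accessions. Members were chosen by the scanner's detection calls in both colours, and the probe of an accession was selected on its brightness, so being detected is the rule and no finding. The dimmest member, 1700120K04Rik, had a mean log2 scanner signal of 4.39. The 8 nearest noncoding probes outside passed 11 of 12 readings, at mean signals between 4.32 and 5.37, so brightness overlapped on the 2 sides of the threshold.

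All livers came from male Apoe-deficient mice on a C57BL/6J background. Apoe encodes apolipoprotein E, which clears remnant lipoproteins, and its loss in mice gives high plasma cholesterol. The 9 control mice ate a purified Western diet with 0.15% cholesterol and 20% palm oil for 11 weeks, and the 10 treated mice ate the same diet with 1% squalene, given as 1 g per kg mouse. Squalene is the hydrocarbon precursor of sterols. RNA was combined into 4 pools for each diet, each of 2 or 3 mice, so the spread between pools understates that between mice. Each squalene pool was paired with 1 Western pool on a two-colour array. Squalene RNA was in Cy5 in pairs 1 and 4 and in Cy3 in pairs 2 and 3, and pairs 1 and 2 were hybridised on 2 arrays each. The sources used here do not give the ages of the mice. In each channel 48.7% to 54.2% of the non-control spots were well above background. All 14 hepatocyte markers were measured, with a summary level between 16.1 and 16.4 on the log2 scale in every pool. The only Apoe probe was well above background on 6 of 6 arrays for both diets. Its place relative to the disrupted part of the gene is not in the files, so it checks nothing.

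Noncoding RNAs work without being translated. Long noncoding RNAs (lncRNAs) can scaffold nuclear bodies, silence imprinted neighbours or carry snoRNAs and miRNAs in their introns and exons. Transcribed pseudogenes are copies of protein-coding genes and can share long stretches of sequence with their parents. Structural RNAs build the ribosome, the spliceosome and the enzymes that process other RNAs. Of the members, 232 had a symbol in the RefSeq table: 146 lncRNAs, 76 transcribed pseudogenes and 10 structural RNAs. The other 30 had an accession only and are given by it.

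Several members are host transcripts from which miRNAs are cut, and their mature products are shown because they are the best-known output of these RNAs. The sequences are from RefSeq (GRCm38.p6), 5′ to 3′, with the seed (bases 2 to 8), which pairs with targets, in capitals. The array read the hosts and did not measure the mature miRNAs.
Mir22hg, miR-22-5p: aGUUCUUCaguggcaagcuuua
Mir22hg, miR-22-3p: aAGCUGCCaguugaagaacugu
Dleu2, miR-15a-5p: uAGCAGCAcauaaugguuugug
Dleu2, miR-16-5p: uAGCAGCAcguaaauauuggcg
Mir17hg, miR-92a-3p: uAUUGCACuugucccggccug
Meg3, miR-770-5p: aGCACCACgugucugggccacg
Meg3, miR-1906: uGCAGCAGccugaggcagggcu
D7Ertd143e, miR-291a-3p: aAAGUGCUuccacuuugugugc
D7Ertd143e, miR-294-3p: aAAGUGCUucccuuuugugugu
D7Ertd143e, miR-295-3p: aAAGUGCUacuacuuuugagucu
The pair from Dleu2 share the seed AGCAGCA, and the 3 products of D7Ertd143e share AAGUGCU.

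The first comparison asked whether dietary squalene shifted these RNAs in the liver. None of the 262 members passed an adjusted p of 0.05 with limma, and neither did any of the 21074 features (0%). The members' median log2 ratio of squalene over Western was -0.0062, beside 0.0031 for all features. Member means ran from -0.30 for Gpr137b-ps to 0.31 for Meg3, while all features ran from -0.88 to 3.35. In the 4 pairs the members' median was -0.018, -0.016, -0.019 and 0.0053. Every pair's median lay close to 0. Loess normalisation centres the ratios of each array near 0, so a shift shared by all features could not be seen here. The mean was above 0 in 123 members (46.9%), and in 51.9% of all features.

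With normexp-corrected, loess-normalised signals, most intervals of the diet difference were narrow. The 95% interval of the mean lay within a 2-fold change for 261 of 262 members (99.6%, all features 99.5%), the exception being the pseudogene Serpina4-ps1. It lay within a 1.5-fold change for 251 members (95.8%, all features 96.7%). The 11 members with wider intervals included Neat1 (-0.62 to 0.79), Snhg3 (-0.79 to 0.52), Kcnq1ot1 (-0.31 to 0.81) and Tubb2a-ps2 (-0.83 to 0.84). The median SE was 0.067, with 4 pairs and a dye term in the fit. That term takes any difference between the dye orientations, and so between their pools, out of the SE. NR_003278, with an SD between pairs of 1.35, thus had an interval of -0.29 to 0.27. Intervals without the dye term or with the trended robust variance model are not given here. The bound depended on the background correction: from the scanner's processed signals 256 members lay within 2-fold (97.7%, all features 97.5%) and 223 within 1.5-fold (85.1%, all features 85.5%).

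At an unadjusted limma p under 0.05 there were 7 members, or 2.67% beside 2.43% of all features. Of these, 5 were higher with squalene (1.91%, all features 1.04%) and 2 lower (0.763%, all features 1.39%). The share is near the background, so the 7 are described and not called. A single sign in all 4 pairs was found in 13 members (4.96%) and 6.4% of all features. It was higher in 4 members (1.53%, all features 3.37%) and lower in 9 (3.44%, all features 3.02%). Squalene and Western pools did not overlap in 2 members, Meg3 and 4931440P22Rik (0.763%, all features 0.778%). With 4 pairs, an exact two-sided sign-flip test cannot go below 0.125.

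**Figure D1:**
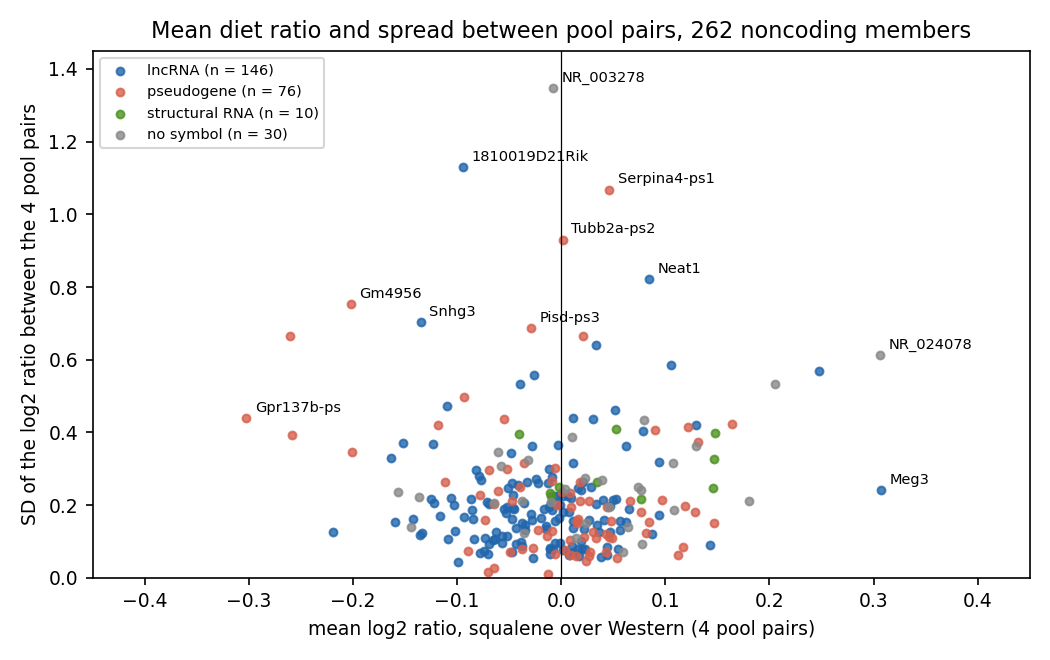
Mean log2 ratio of squalene over Western (horizontal) against the SD of the 4 pair ratios (vertical), 1 point for each of the 262 members, coloured by RefSeq class. Means lie between -0.30 and 0.31, and the widest spread is that of NR_003278 at an SD of 1.35, with a mean near 0.

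Meg3 is the maternally expressed lncRNA of the Dlk1-Dio3 imprinted domain. Its log2 intensity in the squalene pools was 6.98, 7.02, 7.26 and 7.15, and in the paired Western pools 6.88, 6.86, 6.62 and 6.82. Every squalene pool lay above every Western pool, by little in pair 1 and most in pair 3. The pair ratios were 0.10, 0.16, 0.64 and 0.33, a mean of 0.31 ± 0.24 (SD, n = 4; 95% interval 0.06 to 0.56). The unadjusted limma p was 0.025 and the adjusted p 0.9999. From the scanner's processed signals the mean was 0.67, outside that interval. Without pair 3 the fitted diet estimate, which weights both dye orientations equally, was 0.19. Probes for 2 further Meg3 accessions, not well above background throughout, gave means of 0.09 and -0.08, so the array's Meg3 probes did not share a size or a sign.

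4931440P22Rik is an lncRNA whose locus overlaps Tiparp, which encodes a protein of the poly(ADP-ribose) polymerase family. Its squalene pools read 6.93, 6.86, 6.99 and 6.95, and its Western pools 7.14, 7.25, 7.08 and 7.15. All squalene pools were below all Western pools. The pair ratios were -0.20, -0.39, -0.09 and -0.20, a mean of -0.22 ± 0.13 (SD, n = 4; 95% interval -0.40 to -0.04). The unadjusted limma p was 0.026 and the adjusted p 0.9999. From the scanner's processed signals the mean was -0.43, outside that interval. A second probe of the same accession gave a mean of -0.02, with a value of 0.14 in pair 4. Tiparp read -0.29, -0.20, -0.01 and 0.15, so it did not keep 1 sign.

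**Figure D2:**
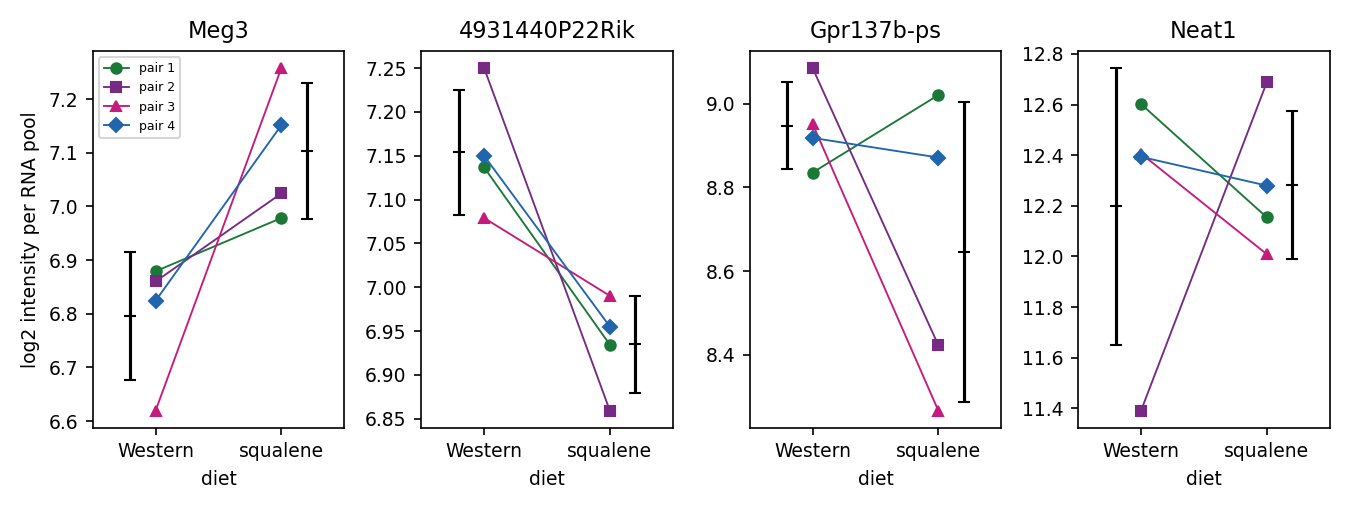
Log2 intensity of 4 members in each Western and squalene RNA pool, with a line joining the pools of a pair and bars for the mean ± SD of 4 pools; each panel has its own axis. Pools of the diets are apart for Meg3 and 4931440P22Rik and overlap for Gpr137b-ps and Neat1.

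Gpr137b-ps is a pseudogene of Gpr137b, which encodes a lysosomal membrane protein, and had the lowest mean of all members. Its squalene pools read 9.02, 8.42, 8.27 and 8.87, and its Western pools 8.84, 9.09, 8.95 and 8.92. Squalene was lower in pairs 2 and 3, where it was in Cy3. It was near or above Western in pairs 4 and 1, where it was in Cy5. The pair ratios were 0.19, -0.66, -0.69 and -0.05, a mean of -0.30 ± 0.44 (SD, n = 4; 95% interval -0.47 to -0.14). The unadjusted limma p was 0.0051 and the adjusted p 0.9999. A fit without the dye term gave the same mean an unadjusted p of 0.11.

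A second Gpr137b-ps probe gave -0.04, -0.47, -0.44 and -0.20. The parent gene Gpr137b gave 0.21, -0.69, -0.71 and -0.07, nearly the values of the pseudogene, and probes of near-identical copies may read each other. Lipid-associated macrophage markers were on average lowest in the same pairs, at 0.13, -0.71, -0.73 and -0.10 in the 4 pairs. All 10 of 10 had a mean below 0, beside 10137 of 21074 features. Their mean log2 level ran from 9.93 to 10.61 in squalene pools and from 10.48 to 10.78 in Western pools. Single markers differed: Spp1 read -0.62, -0.26, -0.10 and 0.32, and Fabp5 0.26, -0.31, 0.10 and -0.19. Kupffer cell markers averaged 0.18, 0.24, -0.61 and -0.53, low in other pairs. Fibroblast markers averaged 0.24, -0.44, -0.42 and 0.06, but 4 of 13 had a mean above 0. Among these were Acta2 at 0.36, Rgs5 at 0.18 and Tagln at 0.15. The part of dye or of these cells in the Gpr137b-ps values was not tested. In bulk tissue, fewer cells of a type and less RNA per cell cannot be told apart.

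The other members at an unadjusted p under 0.05 had smaller ratios or, like Gpr137b-ps, ratios that went with the dye. Rmrp, the RNA of the RNase MRP enzyme that cuts pre-ribosomal RNA, read 0.49, -0.13, -0.13 and 0.35, a mean of 0.15. NR_024078 read 0.66, -0.13, -0.29 and 0.98, a mean of 0.31. Both were higher with squalene in Cy5 and lower with it in Cy3. NR_033578 had a mean of 0.18. The lncRNA 4933412E12Rik read 0.10, 0.25, 0.17 and 0.05, a mean of 0.14 ± 0.09 (SD, n = 4). Across 14 alternative settings, Meg3, Gpr137b-ps and NR_024078 each kept an unadjusted p under 0.05 in 11, 4931440P22Rik in 7, NR_033578 in 5, and Rmrp and 4933412E12Rik in 4.

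Besides Meg3 and 4933412E12Rik, the pseudogenes Gm5088 (mean 0.12) and Gm16523 (mean 0.11) were above 0 in every pair. From the scanner's processed signals these means were 0.33 and 0.26. Below 0 in every pair, after 4931440P22Rik, were C030034I22Rik at -0.16, 2610306M01Rik at -0.11, Zbtb11os1 at -0.10 and Gm5523 at -0.09. Gm9731 and Stk35os1 followed at -0.07, Gm12070 at -0.06 and Gm10653 at -0.01. Zbtb11os1 lies on the strand opposite Zbtb11, a zinc finger gene, which read 0.17, 0.10, -0.07 and 0.29. Stk35os1 lies opposite the kinase gene Stk35, which read 0.11, -0.18, 0.43 and 0.08. Both partners were above 0 in 3 of the 4 pairs. The antisense RNAs were named for being below 0 in every pair, so only the partner's sign could vary. Aak1, which overlaps 2610306M01Rik on the opposite strand, read -0.09, 0.34, 0.20 and -0.19. Some of the 13 hardly varied on the member's own probe: the SD between pairs was 0.01 for Gm10653 and 0.02 for Gm9731. Further probes, well above background throughout, did not keep 1 sign for Gm5523, Gm12070, Gm10653 and C030034I22Rik. A second Gm5523 probe read -0.10, 0.09, 0.16 and -0.02, a mean of 0.03. A further Gm12070 probe read -0.16, 0.16, 0.24 and -0.31, and a Gm10653 probe -0.17, 0.01, 0.12 and -0.04.

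**Figure D3:**
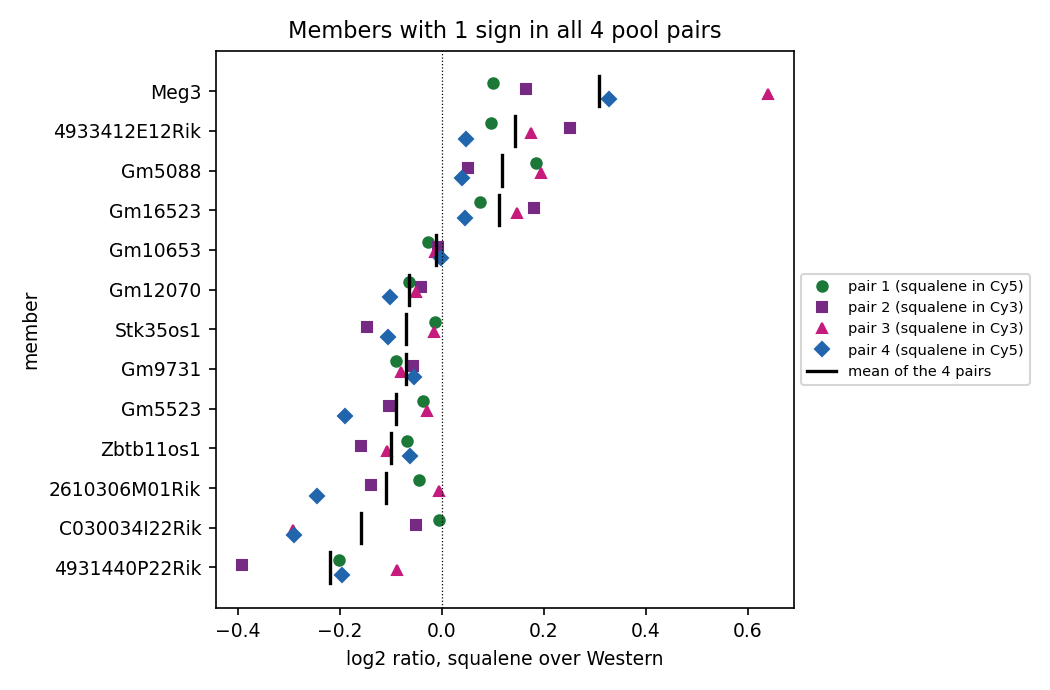
Log2 ratios of squalene over Western in pool pairs 1 to 4 (points) and their mean (bar) for the 13 members with 1 sign in every pair. Meg3 reaches 0.64 in pair 3 and 4931440P22Rik -0.39 in pair 2; the other members stay within 0.3 of 0.

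By class, medians stayed close to 0. Over all features, 10137 of 21074 had a mean below 0. Of 146 lncRNAs, 91 had a mean below 0 and the median was -0.013; under 14 alternative settings 76 to 92 were below 0 and the median ran from -0.024 to -0.004. Among 76 pseudogenes 33 were below 0, with a median of 0.0089. Of the 30 members without a symbol 11 were below 0, with a median of 0.024. Among 10 structural RNAs 4 were below 0. No class held a member past an adjusted p of 0.05.

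The snoRNA host genes carry, in their introns, the small nucleolar RNAs that guide modification of ribosomal RNA, and are spliced to lncRNAs that turn over quickly. Of 20 listed hosts 10 were members, none passed the test, and 8 of 10 had a mean below 0. Their median was -0.071, beside 0.0031 for all features, of which 10137 of 21074 had a mean below 0. Under 14 alternative settings 6 to 9 of the 10 were below 0. The list averaged -0.01, -0.22, -0.11 and 0.06 in the 4 pairs, so the lower values were mostly in pairs 2 and 3, where squalene was in Cy3. The lipid-associated macrophage and fibroblast lists given above averaged below 0 in those pairs too, though not every fibroblast marker was low. In pairs 2 and 3 the hepatocyte list averaged -0.21 and -0.05 and the endothelial list -0.11 and -0.22. The bile duct list averaged -0.05 and -0.11 there, the lymphocyte list -0.00 and -0.08, and the Kupffer cell list 0.24 and -0.61. Low averages in those pairs were thus not particular to a few cell types. The 8 measured red cell markers averaged 0.05, -0.44, -1.10 and 0.10, and all 8 had a mean below 0. Not every red cell marker was low in pairs 2 and 3: Alas2 read -0.34, 0.08, 0.25 and -0.21, and Slc4a1 0.02, 0.15, -0.24 and -0.00. Their mean log2 level ran from 11.28 to 11.82 in squalene pools and from 11.56 to 12.38 in Western pools. The part of dye or of these cells in the host values was not tested. Snhg18 read -0.03, -0.37, -0.49 and 0.24, a mean of -0.16 ± 0.33 (SD, n = 4). Dancr read 0.09, -0.15, -0.24 and -0.27 (mean -0.14) and Snhg7 -0.00, 0.05, -0.12 and -0.43 (mean -0.12). Snhg17 had a mean of -0.07. Each of these means was smaller than its SD between pairs, and none had an unadjusted limma p under 0.05.

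Of 16 listed imprinted transcripts, expressed from 1 parental copy, 4 were members, with means of 0.31 for Meg3, 0.25 for Kcnq1ot1, 0.02 for Peg13 and -0.00 for Airn. Kcnq1ot1, which silences neighbours in the Kcnq1 domain, read 8.28, 8.42, 8.10 and 7.94 in squalene pools and 7.86, 7.44, 8.32 and 8.13 in Western pools. It was higher with squalene in pairs 1 and 2 and lower in pairs 3 and 4. Its SD of 0.57 exceeded its mean. Without pair 2 the fitted diet estimate, which weights both dye orientations equally, was -0.05. Airn, which silences Igf2r, read -0.11, 0.25, 0.06 and -0.20.

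RNAs of nuclear bodies and X inactivation had 3 members of 8 listed. Neat1 is the scaffold of paraspeckles. Its squalene pools read 12.15, 12.69, 12.01 and 12.28, and its Western pools 12.60, 11.39, 12.41 and 12.39. The Western pool of pair 2 stood far below the other 3 Western pools, and the ratios were -0.45, 1.30, -0.40 and -0.11. Both arrays of pair 2 gave this, at 1.31 and 1.28. The mean was 0.08. With a pair left out, the fitted diet estimate, which weights both dye orientations equally, was -0.34 without pair 2 and 0.51 without pair 3. Malat1, a nuclear speckle RNA, read -0.43, 0.10, 0.13 and 0.45, and its mean of 0.06 did not exceed its SD of 0.36. Ftx, from the X inactivation centre, stayed between -0.04 and 0.11.

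Structural and catalytic RNAs from a list of 22 had 3 members. Besides Rmrp, these were Rnu12, the U12 RNA of the minor spliceosome, with a mean of -0.00, and Terc, the telomerase template, at -0.01. Of 14 RNAs on the miRNA host list 4 were members. Mir22hg, host of the miR-22 pair printed above, read 0.15, 0.18, -0.21 and -0.17. Mir17hg, the host of the miR-17-92 cluster, read 0.36, 0.45, -0.33 and -0.64 and averaged -0.04 ± 0.53 (SD, n = 4). Mirt1, which is on the list but is not shown to be a miRNA host, averaged -0.09, and Mir99ahg averaged 0.07. Dleu2, host of the AGCAGCA seed, averaged -0.05, and D7Ertd143e, host of the AAGUGCU seed, 0.04. In this group no RNA's mean exceeded its SD between pairs. Meg3, also a host, is given above.

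Hepatic and lipid-linked lncRNAs had 7 members from 6 of 27 listed genes, since Tug1 entered with 2 accessions, and a median of 0.012. Apart from RNAs given above, C730036E19Rik read -0.29, 0.19, 0.69 and -0.07 (mean 0.13) and Gm10768 averaged 0.03. Of 26 listed stress and growth lncRNAs 5 gave 6 members, Tug1 again with 2 accessions, and the median was -0.008. Norad, a cytoplasmic RNA that binds Pumilio proteins, read -0.10, 0.63, 0.08 and -0.31. Lockd read 0.50, -0.18, 0.20 and -0.14. Pvt1, near Myc, averaged -0.05, and the Tug1 accessions -0.01 and -0.02.

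The antisense lncRNA Hnf4aos, opposite the hepatocyte regulator Hnf4a, read -0.20, -0.03, 0.64 and -0.36, while Hnf4a read -0.35, 0.52, 0.32 and -0.30. The 10 members with a measured partner named on the opposite strand correlated with it across genes at 0.28, 0.29, 0.17 and 0.71 in pairs 1 to 4. Genes are not independent replicates, and each pair of values shares a hybridisation. Over 67 members with a measured overlapping gene the correlation was 0.15, 0.14, 0.19 and 0.10.

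Pseudogenes were set beside their parents. For 13 pseudogenes named after a measured protein-coding parent, the correlation across genes was 0.76, 0.90, 0.94 and 0.53 in the 4 pairs, with no test given. Pisd entered as the parent of both Pisd-ps1 and Pisd-ps3. In pair 3 the widest parent values were those of Tubb2a (-2.32) and Gpr137b (-0.71). Some genes differed in sign from their pseudogene, as Smarca5 (0.12) and Smarca5-ps (-0.16) did in pair 3. Tubb2a-ps2, a pseudogene of a beta-tubulin gene, read 0.39, 0.67, -1.38 and 0.32, and Tubb2a 0.63, 0.74, -2.32 and 0.46. Both were low in squalene only in pair 3. Pisd-ps1 read -0.21, 0.56, -0.10 and -0.47 and Pisd-ps3 -0.31, 0.95, -0.11 and -0.65. Their parent Pisd, a mitochondrial phosphatidylserine decarboxylase gene, read -0.09, 0.43, -0.29 and -0.15. Whether a probe reads the pseudogene, the parent or both was not tested, since the files do not give probe sequences.

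**Figure D4:**
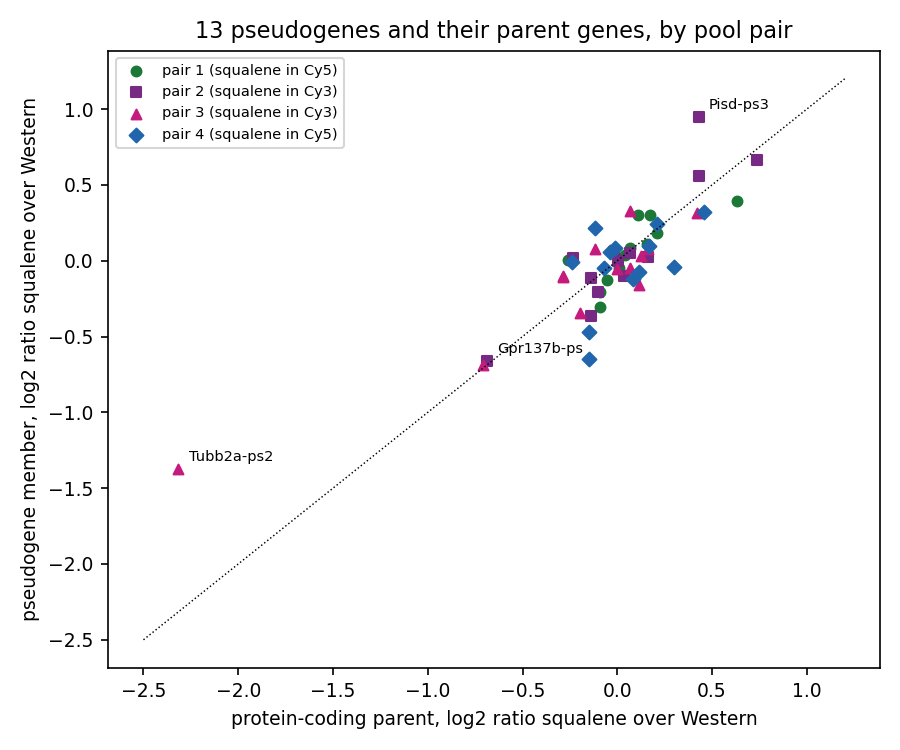
Log2 ratio of squalene over Western for 13 pseudogenes (vertical) and their protein-coding parents (horizontal) in each pool pair, with a dotted line of equal values. Tubb2a-ps2 in pair 3 lies lowest on both axes, at -1.38 and -2.32, and Gpr137b-ps lies on the line.

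Many members varied between pool pairs without a difference in the mean. The SD between pairs exceeded 0.5 in 17 members (6.49%, all features 4.38%), and the median SD was 0.19 beside 0.16. Over the members the 2 arrays of a pair correlated at 0.84 in pair 1 and 0.91 in pair 2 (all features 0.85 and 0.88), with a technical SD of 0.087 in each. The repeats used the same pools in the same dyes, so they bear on hybridisation error and not on dye or pools. The lncRNA 1810019D21Rik read -0.06, 1.09, 0.21 and -1.62, with repeats at 1.09 and 1.10 in pair 2. Serpina4-ps1, a pseudogene of the serine protease inhibitor family, read 0.41, 1.31, -1.19 and -0.35, with repeats at 1.31 and 1.32. Snhg3 read -0.48, -0.92, 0.20 and 0.66. Each of these was high in squalene in some pairs and low in others, and its mean lay within 0.14 of 0.

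Gm10319 was low in pair 3 (0.36, -0.03, -1.20 and -0.18), and its second probe gave -1.13 there. Gm4956 read -0.31, 0.68, -0.04 and -1.14. In all, 49 further probes of 37 members were well above background throughout, 38 had the same sign of mean as the member, and the median absolute difference was 0.039.

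**Figure D5:**
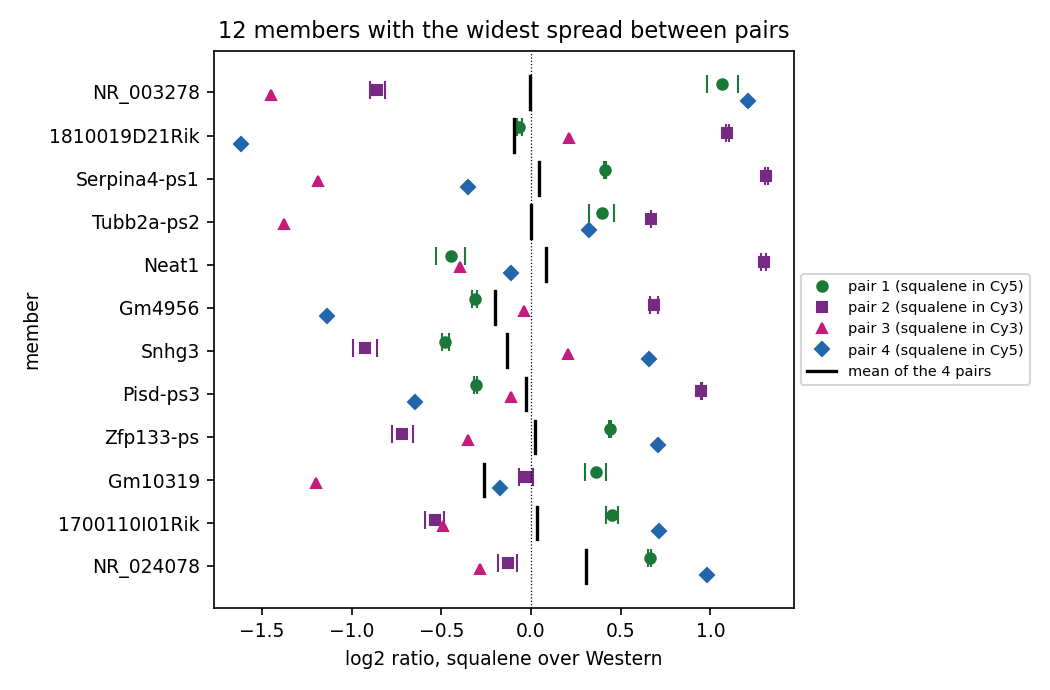
Log2 ratios of squalene over Western in pool pairs 1 to 4 (points), repeat arrays of pairs 1 and 2 (vertical ticks) and the mean of the pairs (bar) for the 12 members with the widest spread. Repeat arrays lie close together while pairs differ, and NR_003278 splits by the dye of the squalene pool.

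Part of the spread went with the dye. The mean red-over-green log2 ratio went beyond 0.3 in either direction in 23 members (8.78%, all features 5.03%). NR_003278 read 1.07, -0.86, -1.45 and 1.21, positive where squalene was in Cy5 and negative where it was in Cy3, for a mean of -0.01. The 10 structural RNAs had medians of 0.21, -0.16, -0.16 and 0.32 in the 4 pairs. The pseudogenes Cyp2d37-ps (-0.46, 0.24, 0.42 and -0.57) and Cyp2d13 (-0.22, 0.38, 0.52 and -0.15), of the drug-metabolising Cyp2d family, ran the other way. Over the members, pairs of opposite dye correlated at -0.24, -0.56, -0.54 and -0.24, and pairs of the same dye at 0.37 (1 and 4) and 0.02 (2 and 3). Over all features the opposite-dye values, in the same order, were -0.14, -0.43, -0.41 and -0.03, and the same-dye values 0.08 and 0.16. Each dye orientation holds its own pools, so dye and pools cannot be told apart.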

How the data were processed

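Per the file headers, Agilent Feature Extraction 10.7.3.1 made the deposited scanner files, which hold spot intensity in 2 colours and flags. The authors' deposited value table holds log10 ratios; they equal log10 squalene over Western of the median signals within 0.001 for at least 99.93% of values, uncentred (column medians from -0.27 to 0.27), and 2 extreme cells in each pair 1 column, whose scale is other than that of a log ratio, were left out. The authors' RNA came from pools of 2 or 3 mice; 200 ng was copied from a T7 primer mix. The sources used here do not say what that primer anneals to, so how fully RNAs without a poly(A) tail were labelled is not known.

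Median signals were corrected with normexp (offset 50) and loess-normalised in limma 3.58.1 (R 4.3.3), with control spots at weight 0 and outlier spots left out. Spots of a probe, then the 2 arrays of a repeated pair, were averaged, leaving 4 pairs as replicates. Probes well above background for 1 diet in at least 3 of 4 pairs were kept, with the brightest per accession. lmFit and eBayes fitted diet with a dye intercept, and p-values were adjusted by Benjamini-Hochberg over 21074 features. Levels are log2 intensities per channel after between-array scaling, and intervals are 95%. The depth of an array has no read count: the number of arrays limits the precision. With a pair left out, the fit still weighted both dye orientations equally. The fit was tested on simulated data.

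Members and gene lists were chosen with earlier results of these data known. Named were: up to 12 members with 1 sign in all pairs in each direction, the 12 brightest, and up to 4 of each list (all of a list of 6 or fewer), 46 in all; a further 47 members, chosen after their values were seen, enter the text or its ranges. Symbols are from RefSeq (GRCm38.p6). That table's build differs from that of the files, so no positions are given. Alternatives were other background correction, normalisation, filter, dye term, repeat handling, slide, probe, variance model and membership settings and each pair left out.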

Additional observations from a re-analysis of the deposited data

Results flagged for a closer look

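All 262 members were tested for a pair that stood far from the other 3 by Dixon's criterion at 95%, and 9 had one (3.44%), beside 4.74% of all features; chance alone gives about 1 in 20, so the number is no more than chance gives. Tubb2a-ps2 stood apart at -1.38 in pair 3 and 1700001L05Rik at 0.978 in pair 3. Rnu3b1, the small nucleolar RNA U3, stood apart at 0.401 in pair 4. Lppos stood apart at 0.335 and Gm6524 at 0.313, both in pair 3. Hmgb1-rs17 stood apart at -0.363 and Gm5766 at 0.0563, both in pair 2. 5730416F02Rik stood apart at 0.316 and 3110070M22Rik at -0.223, both in pair 1.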

How the results depend on the processing

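No member passed an adjusted p of 0.05 under any alternative run (smallest 0.452, without pair 2), while 9 features elsewhere did with the deposited table, 2 with median centring and 12 with arrays entered singly. The 7 members with an unadjusted p under 0.05 became 3 with median centring, 2 with the deposited table, 14 without a filter, 2 without the dye intercept, 0 with a trended robust variance model (0 called by adjusted p too) and 4 among the 150 brightest members. Leaving out a pair gave 1 (without pair 4) to 18 (without pair 3), with 16 without pair 2; 3 of the 18 and 4 of the 16 were among the 7. The 13 members with 1 sign in all pairs became 8 with median centring, 6 with the deposited table, 5 among the 150 brightest, and 34 to 43 with a pair left out, where 3 pairs share a sign more easily. The median of -0.0062 became 0.0075 with median centring and 0.0071 with the deposited table. Over 93 members, each under 14 settings, 140 of 1302 values had the opposite sign and 13 moved by more than the SD; 33 members kept their sign throughout. The fit is itself paired, since every array holds a squalene and a Western pool. Dim probes, pools of few mice and 4 pairs limit what could be detected.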
